A study of Mus musculus with 4 samples.

Results

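The 10 genes described here, Ercc1, Ercc2, Ercc3, Ercc4, Ercc5, Ercc6, Xpa, Xpc, Ddb2 and Polk, were chosen by name as core factors of nucleotide excision repair together with a polymerase that copies past DNA adducts. They were taken by symbol from a table of 19609 gene rows, and each of the 10 had a row. Their levels were read in 23 clusters of nuclei from mouse kidney cortex, in each of 4 male mice of mixed strain. The control mouse had the genotype TRE-hKLF6 and no AAI, and a mouse of the same genotype received AAI. The hKLF6OE mouse had the genotype CAG-rtTA,TRE-hKLF6 and no AAI, and another of that genotype received AAI. All mice carried the TRE-hKLF6 transgene and, per the methods, ate doxycycline at 200 mg/kg of diet for 1 week before AAI, so that in hKLF6OE mice the transgene was on where rtTA was made, which the methods call global. AAI, aristolochic acid I, was given as 1 injection of 2 mg/kg, the mice were killed 24 h later, and uninjured mice are described as given the DMSO solvent alone. The human transgene itself was not checked here. With 1 mouse in each condition there is no spread between mice, so every difference below compares one animal with another and no test was made.

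Aristolochic acid I is a plant nephrotoxin that proximal tubule cells take up and reduce, after which it binds purine bases and leaves bulky aristolactam adducts on DNA. Nucleotide excision repair removes bulky adducts by finding the lesion, opening the helix around it, cutting the damaged strand on both sides and filling the gap. Lesions are found either anywhere in the genome, through Xpc and Ddb2, or at a stalled RNA polymerase, through Ercc6, and aristolactam adducts are known to be removed mainly in the second way. Translesion polymerases, of which polymerase kappa (Polk) is one, instead copy past an adduct that is still in place.

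Each value, called a level below, is a gene's mean normalized expression in the nuclei that a cluster drew from a given mouse. The scale is linear, and each of the 92 columns sums to 10000. A fall in the share of nuclei with a transcript and a fall in transcript per nucleus cannot be told apart in such means, nor can the number of nuclei be read from them. Differences are of log2(level + 1), and a gene was called higher or lower at a difference of at least 0.2 where its larger level was at least 0.5. That scale understates the change of genes at low levels. Levels are compared within a gene and not between genes, which differ in length. Reads in introns were counted, and the use of strand is not given in the sources used here, so reads of Ercc1, Ercc2, Xpa, Ddb2 and Polk cannot be told from those of genes that overlap them on the other strand (Cd3eap for Ercc1, Klc3 and Gm26852 for Ercc2, Ncbp1 for Xpa, Acp2 for Ddb2 and Gm17622 for Polk).

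Markers fixed for each cell type were highest in the clusters of that name for podocytes, ascending limb, distal convoluted tubule, intercalated cells, descending limb and macrophages. Of the mesangial markers, Pdgfrb was highest in the mesangial cluster MC, but Itga8 in Macrophage, at 1.19 against 0.995 in MC. Of the principal cell markers, Aqp2 was highest in the principal cell cluster CD_PC, but Scnn1g in CNT. The injury marker Vcam1 was highest in EC-2. The cluster named EC-1 differed, since its summed level of 4 proximal tubule markers ranged from 56.7 to 78.0 over the mice, while Flt1, Emcn and Pecam1 were highest in EC-2. DCT_CNT also had a high sum, from 49.2 to 68.1, so results outside the proximal tubule are given with and without both. The share of gene rows at 0 was from 15.1% to 23.1% in the 5 normal proximal tubule clusters without AAI and from 21% to 31.3% with AAI. It reached 63.4% in clusters outside the proximal tubule, where single values are coarse.

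Promoter sequence was available from RefSeq (GRCm38.p6) for 7 of the 10 genes. Shown are the 250 bases before the annotated start of the gene that moved most with AAI, Polk (chr13:96542580-96542829, minus strand), and of Ercc5 (chr1:44147494-44147743, plus strand) and Xpa (chr4:46196312-46196561, minus strand), whose mean differences with AAI had opposite signs. Capitals mark each match to GGGCGG or CACCC on either strand, and the match at the middle of the Polk sequence is an overlap of both.
Polk: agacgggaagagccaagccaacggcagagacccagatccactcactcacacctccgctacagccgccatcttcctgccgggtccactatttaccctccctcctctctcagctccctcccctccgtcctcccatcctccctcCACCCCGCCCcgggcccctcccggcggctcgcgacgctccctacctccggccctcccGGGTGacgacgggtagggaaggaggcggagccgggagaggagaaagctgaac
Ercc5: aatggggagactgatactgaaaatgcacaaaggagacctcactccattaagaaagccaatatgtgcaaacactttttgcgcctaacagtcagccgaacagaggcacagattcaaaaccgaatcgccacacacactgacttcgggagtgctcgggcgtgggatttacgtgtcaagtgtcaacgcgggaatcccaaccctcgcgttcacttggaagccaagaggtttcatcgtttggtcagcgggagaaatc
Xpa: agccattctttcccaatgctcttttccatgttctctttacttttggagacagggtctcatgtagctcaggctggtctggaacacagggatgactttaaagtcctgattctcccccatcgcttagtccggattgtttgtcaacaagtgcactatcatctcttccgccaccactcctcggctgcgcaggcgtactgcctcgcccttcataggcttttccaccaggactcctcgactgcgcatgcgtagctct
These letters, bound in general by Sp and Krüppel-like factors, stood in the Polk window and not in the other windows printed. GGGCGG also stood in the windows of Ercc1, Ercc2 and Ercc6, which are not printed. GGGCGG was in 32.7% and CACCC in 52.0% of all 32851 windows of that length, and in 4 and 2 of the 8 windows of these genes, of which Polk has 2. A p53 half-site was in 7.13% of all windows and in 1 of the 8, at the other Polk start. A p53 site of 2 half-sites 0 to 13 bases apart was in 0.0639% of all windows and in none of the 8. The AP-1 motif TGANTCA was in 6.75% of windows and in none of the 8. The printed Polk window was 68% G or C, that of Ercc5 50% and that of Xpa 52%, and the median over all windows was 52.4%. A match is a run of letters and not a shown site of binding.

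The first comparison asked which repair genes differed between AAI and no AAI in the normal proximal tubule, in the mean of the clusters PT-S1-S2-1, PT-S1-S2-2, PT-S3-1, PT-S3-2 and PT-S3-3. Polk was far higher with AAI in both genotypes, and Ercc5 was higher in hKLF6OE mice. Most of the other members did not reach the filter on low levels and could not be called. The mean Polk level was 0.379 in control, 1.27 in control with AAI, 0.381 in hKLF6OE and 1.55 in hKLF6OE with AAI. The mice without AAI were thus nearly equal and both mice with AAI stood far above them. The log2 difference was 0.72 in control mice and 0.88 in hKLF6OE mice, and it ranked 46 of 4052 and 35 of 4133 genes by rise. Of the 10 genes, 3 passed the filter on low levels in control mice and 1 was called higher, Polk, where 11.7% of all genes tested were called higher and 456 of 4052 lower. In hKLF6OE mice 4 passed and 3 were called higher, Polk, Ercc5 and Ercc6, against 19.5% of genes higher and 15.4% lower. Polk, Ercc5 and, in hKLF6OE mice, Ercc6 passed only through their level with AAI, so these counts are a description. With no filter the called genes were the same. Ercc6 was no longer called in hKLF6OE mice when differences were centred on the median of all genes, at 0.16, or in PT-S3 clusters only, at 0.17, and Ercc5 was no longer called in PT-S1-S2 clusters only, also at 0.17.

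**Figure D1:**
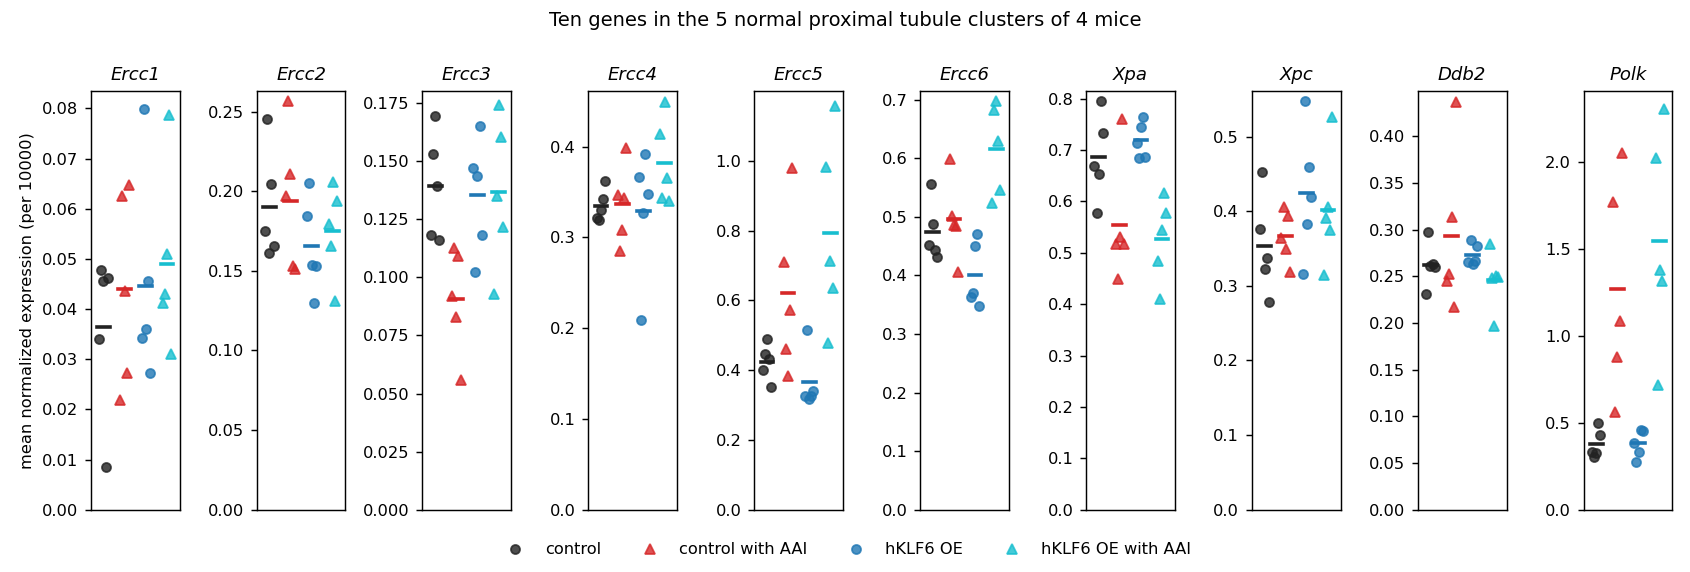
Level (mean normalized expression per 10000) of each of the 10 genes in the 5 normal proximal tubule clusters of each mouse, 1 point a cluster and a line at their mean, with a separate axis from 0 for each gene. Polk points with AAI (triangles, from 0.561 to 2.31) lie above all points without AAI (circles, from 0.276 to 0.50), and Xpa means are lower with AAI in both genotypes.

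Polk was higher with AAI in each of the 5 clusters and both genotypes, and most in PT-S3-1 and PT-S3-3, named for the S3 segment, the last stretch of the proximal tubule. In PT-S3-1 its level was 0.335 in control, 1.77 in control with AAI, 0.384 in hKLF6OE and 2.02 in hKLF6OE with AAI. In PT-S3-3 the levels were 0.431, 2.05, 0.454 and 2.31 in the same order. These clusters had the largest ratios of AAI to none, 5.28 and 4.77 in control mice and 5.27 and 5.08 in hKLF6OE mice. In PT-S3-2 the order gave 0.50, 1.08, 0.461 and 1.32, ratios of 2.17 and 2.86. In PT-S1-S2-2 it gave 0.327, 0.879, 0.331 and 1.38, ratios of 2.69 and 4.15, so the remaining S3 cluster did not exceed it. PT-S1-S2-1 had the smallest ratios, 1.84 in control and 2.60 in hKLF6OE mice, from levels of 0.304, 0.561, 0.276 and 0.716. The levels with AAI did not overlap those without over the 5 clusters in either genotype, and 4.49% of genes in control and 9.7% in hKLF6OE mice were higher without overlap. Polk was called higher in 5 of 5 clusters in both. So were 1.98% of the 4942 genes that passed the filter in any of them in control mice. In hKLF6OE mice 3.90% of 4996 such genes were. The summed proximal tubule markers of PT-S3-3 were lower with AAI in both genotypes, 26.8 against 81.3 in control and 24.6 against 58.5 in hKLF6OE mice. In PT-S3-1 that sum was 62.8 with AAI against 92.7 in control mice and 80.8 against 66.4 in hKLF6OE mice. The part of these markers in the Polk difference was not tested.

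Among the genes that find lesions, Ercc6, which acts at stalled RNA polymerase, had mean levels of 0.474 in control, 0.496 in control with AAI, 0.400 in hKLF6OE and 0.616 in hKLF6OE with AAI. The control pair hardly differed, by 0.02 on the log2 scale, and the hKLF6OE pair differed by 0.21, just over the threshold. In hKLF6OE mice the levels of Ercc6 with AAI, from 0.524 to 0.697, did not overlap those without, from 0.348 to 0.471, as for the 9.7% of genes that were higher without overlap. Xpc, which senses helix distortion, had means of 0.353, 0.366, 0.425 and 0.402 in the same order of mice. Ddb2, the damage sensor of the UV-DDB complex, had means of 0.262, 0.293, 0.273 and 0.246. For Xpc and Ddb2 the log2 differences with AAI ran from -0.03 to 0.03, and neither gene reached the filter.

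Xpa, which verifies the lesion and holds the repair complex together, had lower levels with AAI that did not reach the threshold. Its mean was 0.686 in control, 0.555 in control with AAI, 0.719 in hKLF6OE and 0.527 in hKLF6OE with AAI. The log2 differences were -0.12 and -0.17, short of the threshold of 0.2, and the sign was negative in 5 of 5 clusters in each genotype. Clusters of a mouse are not replicates, and the share of all genes with such signs was not computed. With a pseudocount of 0.1 in place of 1, which gives low levels more weight, Xpa was called lower in both genotypes. How many of all genes were called at that setting was not computed. Over clusters the levels overlapped in control mice and did not in hKLF6OE mice, from 0.409 to 0.617 with AAI and from 0.685 to 0.764 without. Of all genes, 4.24% in control and 7.94% in hKLF6OE mice did not overlap in that direction. In single clusters Xpa was called lower in 0 of 5 in control and 2 of 5 in hKLF6OE mice, where 15.1% and 18.1% of gene and cluster pairs were called lower.

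Ercc2 and Ercc3, the helicases of the TFIIH complex that open the helix, were at low levels and did not reach the filter. Ercc2 means were 0.190, 0.194, 0.165 and 0.175 in control, control with AAI, hKLF6OE and hKLF6OE with AAI. Ercc3 means were 0.139, 0.0906, 0.135 and 0.137, so that control with AAI alone stood low. Its levels there, from 0.0559 to 0.113, did not overlap those of control, from 0.116 to 0.169. Of the genes that passed the filter 4.24% were lower without overlap, but Ercc3 was not among them, so that share is no background for it.

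The incision enzymes differed among themselves. Ercc5, the endonuclease XPG, had means of 0.424 in control, 0.621 in control with AAI, 0.365 in hKLF6OE and 0.793 in hKLF6OE with AAI. The log2 difference was 0.19 in control mice, just short of the threshold, and 0.39 in hKLF6OE mice. As for Polk, the level with AAI was highest in PT-S3-3, at 0.352, 0.978, 0.340 and 1.16 in the 4 mice. PT-S1-S2-1 did not follow, at 0.446, 0.461, 0.516 and 0.478. Ercc5 passed the filter in 3 of 5 clusters in control and 5 of 5 in hKLF6OE mice, and was called higher in 2 and 4. Of all gene and cluster pairs that passed, 15.7% and 22.7% were called higher. Ercc4 and Ercc1, which together form the other endonuclease, did not reach the filter. Ercc4 means were 0.335, 0.336, 0.329 and 0.382, and Ercc1 means were 0.0364, 0.0440, 0.0446 and 0.0490.

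The next comparison set the injured proximal tubule clusters, InjuredPT-A and InjuredPT-B, against the mean of the 5 normal clusters in the AAI-treated mouse they came from. Polk and Ercc5 were higher than that mean in both injured clusters and both mice. Against PT-S3 clusters alone Ercc5 was not called in InjuredPT-B. In control with AAI its level was 0.957 in InjuredPT-B and 0.978 in PT-S3-3. In InjuredPT-A Polk was 3.68 against 1.27 in control with AAI and 4.05 against 1.55 in hKLF6OE with AAI, log2 differences of 1.05 and 0.99. These were its highest levels in any of the 92 columns. Ercc5 in InjuredPT-A was 2.00 against 0.621 and 1.87 against 0.793, differences of 0.89 and 0.68. Of the 10 genes 3 passed the filter in both mice and 2 were called higher, where 43.3% of all genes tested were called higher and 27% lower, so a call there is common. The median difference of all genes was 0.19 in control with AAI and 0.15 in hKLF6OE with AAI, well below those of Polk and Ercc5.

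The mice disagreed on other members in InjuredPT-A. Xpc was 0.891 against 0.366 in control with AAI, a difference of 0.47, and 0.406 against 0.402 in hKLF6OE with AAI. Ercc4 was 0.557 against 0.336 in control with AAI and 0.367 against 0.382 in hKLF6OE with AAI. Ercc6 was 0.334 against 0.496 and 0.470 against 0.616, differences of -0.16 and -0.14 that were short of the threshold, and its larger level passed the filter in hKLF6OE with AAI alone. Xpa was 0.557 against 0.555 and 0.394 against 0.527. Ercc1, Ercc2, Ercc3 and Ddb2 stayed under the filter in both injured clusters of both mice, with levels of at most 0.415. Xpc and Ercc4 thus stood high in 1 mouse only.

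In InjuredPT-B the same 2 genes were called higher, by less. Polk was 2.25 in control with AAI and 2.74 in hKLF6OE with AAI, differences of 0.52 and 0.55. Ercc5 was 0.957 and 1.57, differences of 0.27 and 0.52. Xpa was 0.764 and 0.701, above normal clusters by 0.18 and 0.16, short of the threshold. Here 23.4% of genes tested were called higher and 13.1% lower, and the median differences of all genes were 0.11 and 0.10. With differences centred on these medians Ercc5 was no longer called and Polk was. The injury marker Havcr1 was higher in InjuredPT-B, 0.270 and 1.26 in the 2 mice, than in InjuredPT-A, 0.139 and 0.133. Polk and Havcr1 thus did not order these clusters the same way. Other injury markers differed among themselves. Krt20 went with Havcr1, at 0.245 and 1.34 in InjuredPT-B against 0.0440 and 0.0571 in InjuredPT-A. Lcn2 went the other way, at 0 and 0 against 0.0137 and 0.0209. Vcam1 went both ways, at 0 and 0.0659 against 0.0360 and 0.0426. The summed proximal tubule markers were 21.8 and 33.3 in InjuredPT-A and 32.6 and 25.8 in InjuredPT-B, and their part in these differences was not tested. In the mice without AAI the injured clusters had from 40.8% to 62.6% of gene rows at 0, and they are not used as a reference.

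**Figure D2:**
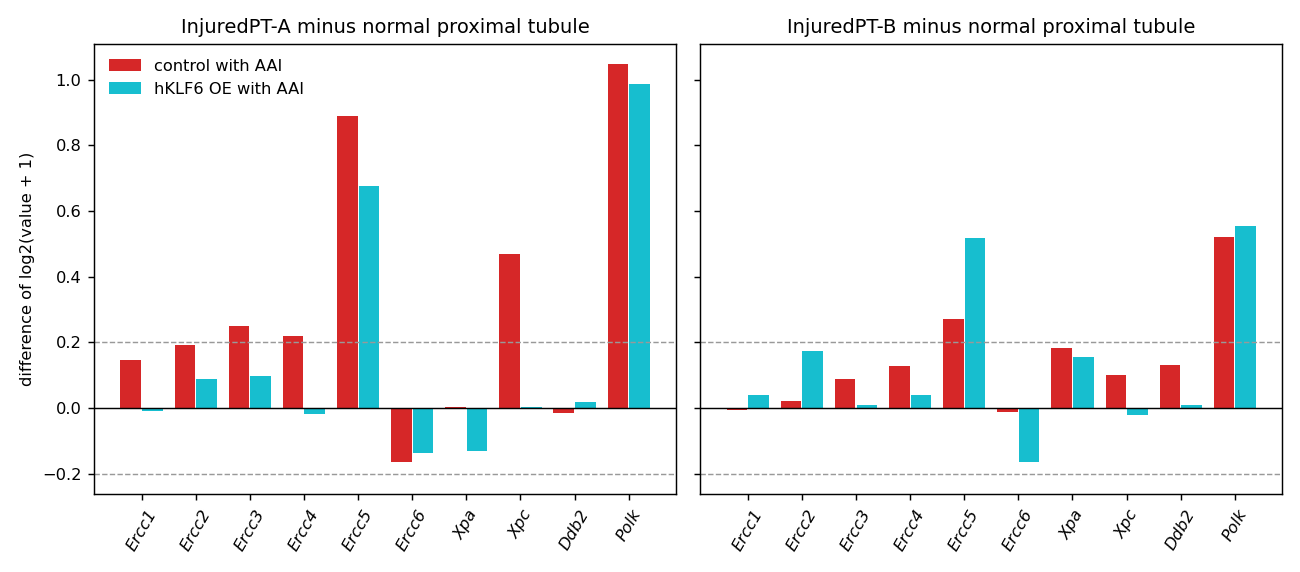
Difference of log2(level + 1) between each injured cluster and the 5-cluster mean of normal proximal tubule in that mouse, as bars for control with AAI and hKLF6OE with AAI, with dashed lines at the threshold of 0.2 on both sides of 0. Polk and Ercc5 exceed the threshold in both mice and clusters, up to 1.05 for Polk in InjuredPT-A, while Xpc, Ercc3 and Ercc4 exceed it in InjuredPT-A of control with AAI alone.

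Across all 23 clusters the order of Polk levels in both AAI-treated mice began with InjuredPT-A, InjuredPT-B, PT-S3-3 and PT-S3-1. In control with AAI these were 3.68, 2.25, 2.05 and 1.77, and the lowest were Podocytes at 0.534 and Macrophage at 0.303. In hKLF6OE with AAI they were 4.05, 2.74, 2.31 and 2.02, and the lowest were Podocytes at 0.541 and LH-DL, the descending limb, at 0.520. No spread is available to say which neighbours in that order differ. For Ercc5, InjuredPT-A was highest in both of these mice, followed by PT-S3-3 at 0.978 in control with AAI and by InjuredPT-B at 1.57 in hKLF6OE with AAI. In control without AAI the highest Polk level among clusters outside InjuredPT-A was 1.09 in LH-AL-3, an ascending limb cluster, and normal proximal tubule clusters did not stand out.

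**Figure D3:**
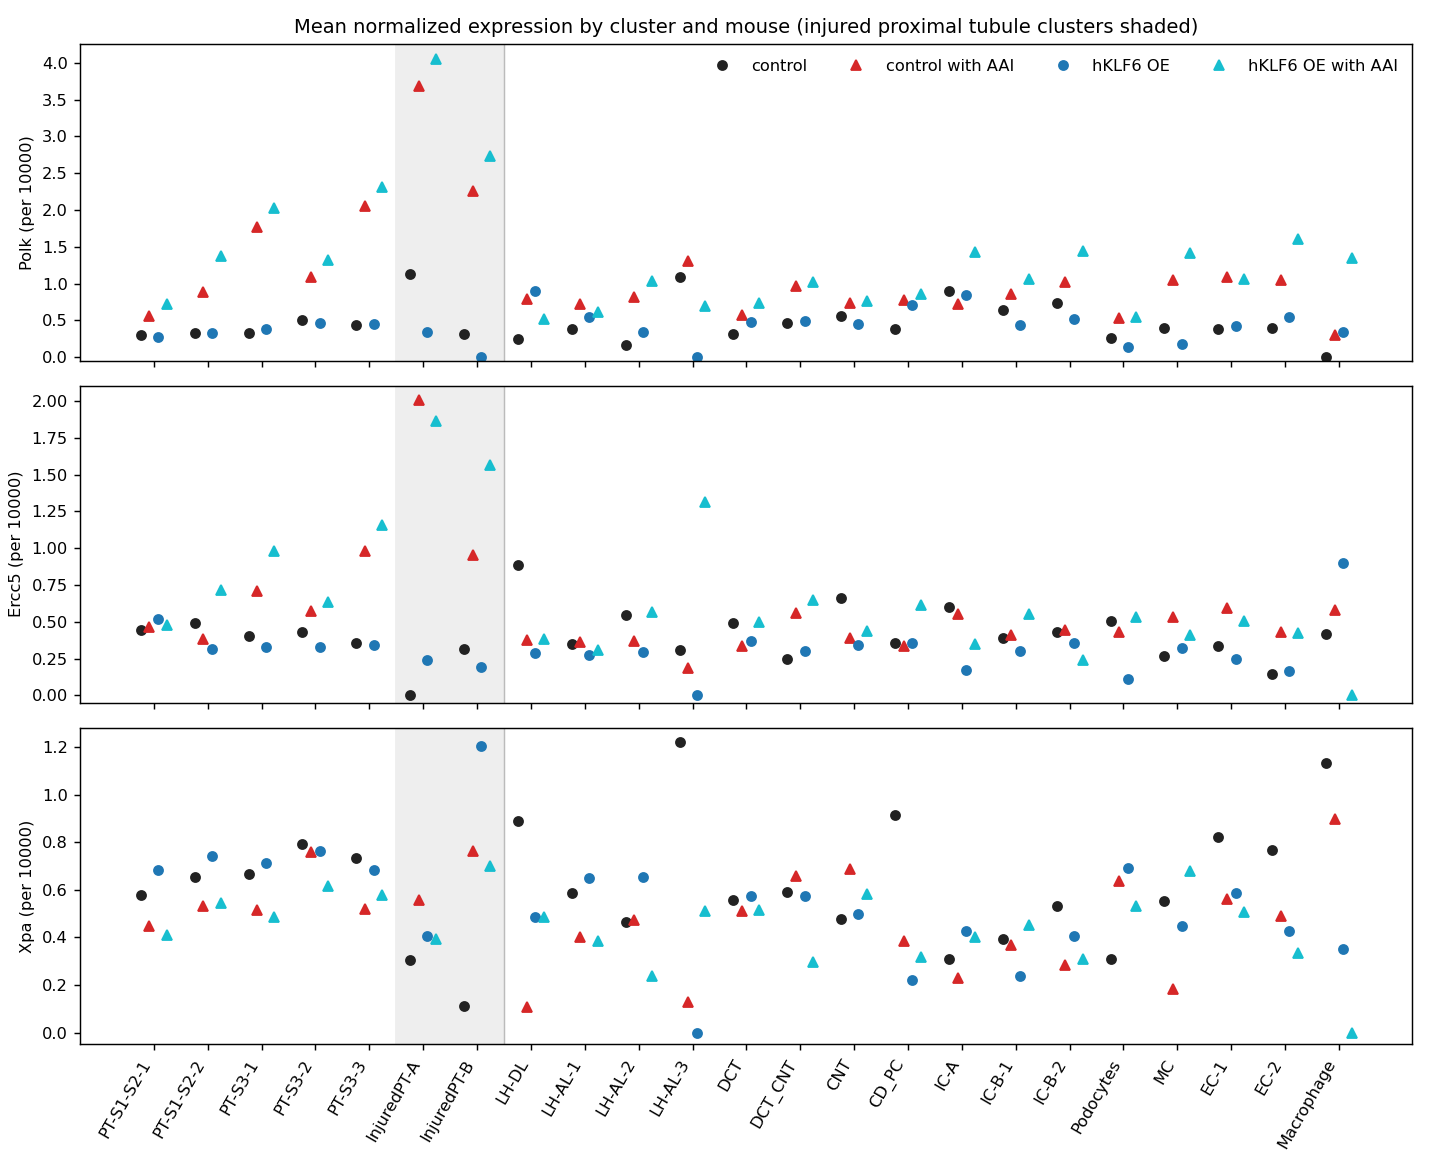
Level (mean normalized expression per 10000) of Polk, Ercc5 and Xpa in each of the 23 clusters, 1 point a mouse, with the injured clusters shaded and the clusters outside the proximal tubule right of the line. Polk with AAI is highest in InjuredPT-A (3.68 and 4.05) and lies above 0.5 in every cluster but Macrophage of control with AAI (0.303), while Xpa has no such peak.

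Polk was also higher with AAI in most of the 16 clusters outside the proximal tubule. In control mice its lowest, median and highest levels over these clusters were 0, 0.391 and 1.09 without AAI and 0.303, 0.807 and 1.31 with AAI. In hKLF6OE mice they were 0, 0.465 and 0.897 without and 0.520, 1.03 and 1.60 with AAI. The ranges overlapped, but within a cluster Polk was called higher in 11 of 16 clusters in control and 13 of 16 in hKLF6OE mice. Of all gene and cluster pairs that passed the filter, 28.6% and 32.3% were called higher and 26.7% and 27.7% lower. In control mice 10129 genes passed the filter in any of these clusters, and 0.849% of them were called higher in at least as many. In hKLF6OE mice 9690 genes passed so, and the share was 0.960%. Genes that passed in few clusters could not reach such a count. In most clusters with a call Polk passed only through its level with AAI, so these counts are a description. The cells concerned were of several kinds. In EC-2, the endothelial cluster, Polk was 0.393 in control, 1.05 in control with AAI, 0.548 in hKLF6OE and 1.60 in hKLF6OE with AAI. In LH-AL-2, of the ascending limb, it was 0.166, 0.824, 0.344 and 1.04. In the type A intercalated cluster IC-A, it was 0.902, 0.725, 0.839 and 1.43, so that the genotypes went opposite ways. Without EC-1 and DCT_CNT, whose proximal tubule markers were highest, Polk was called higher in 9 of 14 and 11 of 14 clusters. The median sum of proximal tubule markers outside the proximal tubule was lower with AAI, 16.1 against 23.2 in control and 11.8 against 19.5 in hKLF6OE mice.

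The counts for the other members were smaller. They are read beside the same shares of gene and cluster pairs that passed the filter, 28.6% and 32.3% higher and 26.7% and 27.7% lower. Each count is thus out of the clusters in which the member passed. In control and hKLF6OE mice these numbered 9 and 8 for Ercc5, 13 and 9 for Xpa and 4 and 3 for Ercc6. They numbered 6 and 8 for Xpc, 9 and 4 for Ddb2, 4 and 2 for Ercc4 and 3 and 0 for Ercc2. Ercc5 was called higher in 3 and lower in 2 of the 16 clusters in control mice and higher in 7 and lower in 1 in hKLF6OE mice. Of the genes that passed the filter in any of these clusters, 33.4% and 11.5% were called higher in at least as many. Of the 3 in control mice 1 was left without EC-1 and DCT_CNT. Xpa was called lower in 7 and higher in 1 in control mice, and lower in 3 and higher in 2 in hKLF6OE mice. Its median level over these clusters was 0.573 in control, 0.437 in control with AAI, 0.468 in hKLF6OE and 0.428 in hKLF6OE with AAI. Ercc6 was called higher in 2 and lower in none in each genotype. Where called higher, Ercc5 and Ercc6 passed only through their level with AAI, so these counts are a description. Xpc was called higher in 2 and lower in 3 in control and higher in 3 and lower in 4 in hKLF6OE mice, and Ddb2 higher in 3 and lower in 3 in control and lower in 1 in hKLF6OE mice. Ercc4 was called higher in 1 and lower in 2 in control mice and in 1 each way in hKLF6OE mice. Ercc2 was called higher in 2 in control mice, and neither Ercc1 nor Ercc3 passed the filter in any of these clusters.

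**Figure D4:**
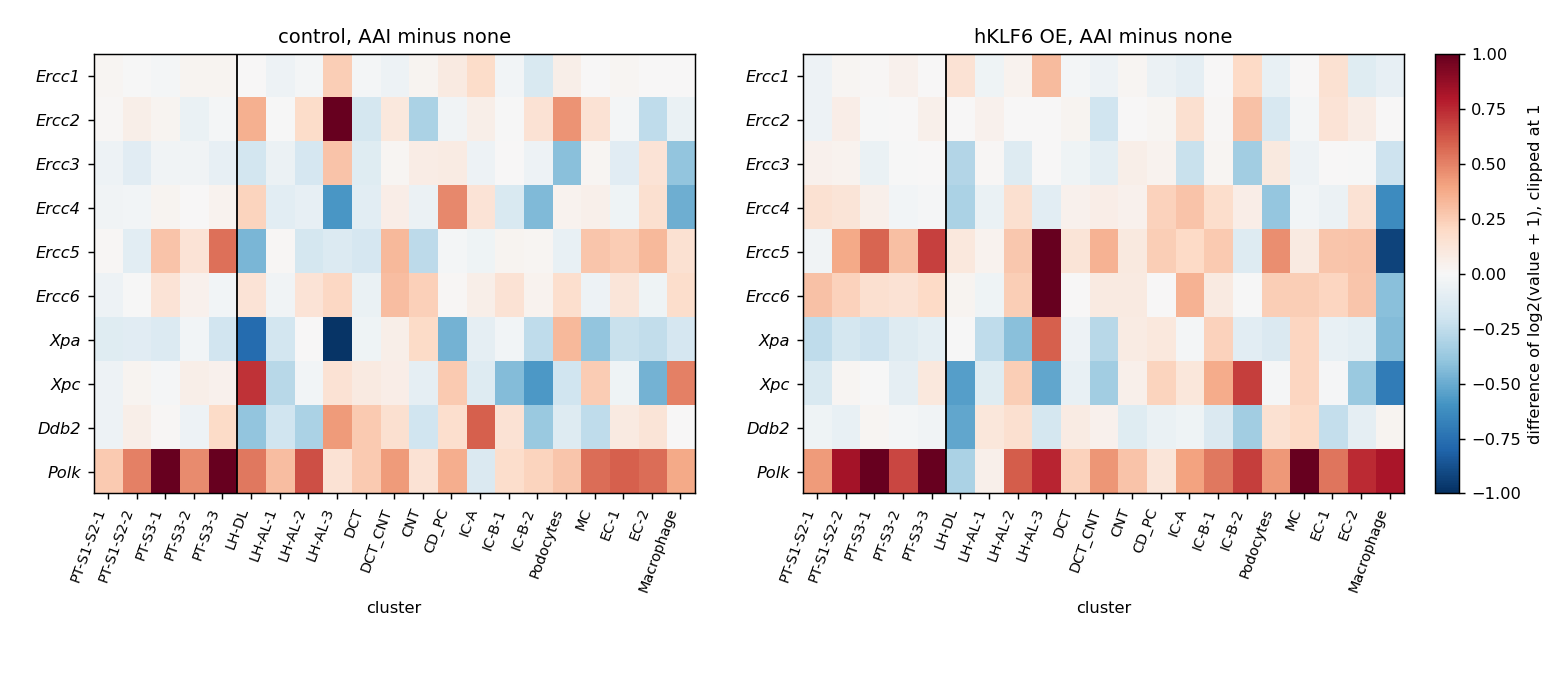
Difference of log2(level + 1) between AAI and none for each of the 10 genes (rows) in the 5 normal proximal tubule clusters (left of the line) and the 16 clusters outside it, for control and hKLF6OE mice, with colours clipped at 1. The Polk row is above 0 in 20 of 21 clusters in each genotype, while other rows hold both signs, with the largest values in LH-DL, LH-AL-3 and Macrophage, where many gene rows are at 0.

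The comparison of hKLF6OE with control showed no member past the threshold in normal proximal tubule. Without AAI, 1 of the 10 passed the filter, Xpa, at 0.686 in control and 0.719 in hKLF6OE, and 7.84% of genes tested were called higher and 9.33% lower. Polk without AAI was 0.379 and 0.381, a difference of 0.00 on the log2 scale. With AAI, 4 passed and none was called, where 6.32% of genes were called higher and 7.74% lower. Polk was then 1.27 in control and 1.55 in hKLF6OE, a difference of 0.17, with hKLF6OE above control in 5 of 5 clusters by 0.11 to 0.34. Ercc5 was 0.621 and 0.793, a difference of 0.15, and above in 5 of 5 clusters by 0.02 to 0.31. Ercc3, under the filter, was also above in 5 of 5, by 0.001 to 0.117. Clusters of a mouse are not replicates, and the share of all genes above in 5 of 5 was not computed. Ercc6 differed by 0.11 and Xpa by -0.03. With a pseudocount of 0.1, Polk, Ercc5 and Ercc6 were called higher in hKLF6OE with AAI. The share of all genes called at that setting was not computed. The size of the AAI difference in each genotype, 0.72 and 0.88 for Polk, could not be tested between genotypes with these mice.

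Of 43 other nucleotide excision repair genes, 12 passed the filter in the normal proximal tubule of control mice, none was called higher with AAI and 1, Stk19, a partner of transcription-coupled repair, was called lower, by -0.28. In hKLF6OE mice 11 passed. Mnat1, a subunit of the TFIIH kinase, was called higher at 0.25 and Gtf2h2, a core TFIIH subunit, at 0.24, and Stk19 was lower at -0.20. The median difference of the genes that passed was -0.01 in control and 0.04 in hKLF6OE mice, beside 0.01 and 0.05 over all genes tested. In InjuredPT-A, 15 passed in both mice, 9 were called higher and 1 lower, with medians of 0.42 and 0.39, beside 43.3% of all genes higher and 27% lower and medians of 0.19 and 0.15. Hmgn1, a nucleosome-binding protein, was higher by 0.91 and 0.81. Gtf2h2 was lower by 0.52 and 0.53 on the log2 scale, from levels of 0.233 against 0.767 and 0.352 against 0.951. In InjuredPT-B 11 passed and none was called in both mice.

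Of 16 other translesion synthesis genes 15 were analysed, and 5 passed the filter in each comparison. Rev1, the scaffold that other bypass polymerases bind, was the gene of this list called higher with AAI in the normal proximal tubule, at 1.37 in control, 2.34 in control with AAI, 1.19 in hKLF6OE and 3.04 in hKLF6OE with AAI. Its differences were 0.50 and 0.88, which ranked 101 of 4052 and 36 of 4133 genes by rise. Rev1 was also called higher with AAI in 10 of 16 clusters outside the proximal tubule in control and 12 of 16 in hKLF6OE mice, and lower in 2 and 0, beside the 28.6% and 32.3% of gene and cluster pairs called higher. With AAI it was higher in hKLF6OE than in control by 0.27. Rev1 departed from Polk in InjuredPT-A, where it was called lower than in normal clusters, 1.74 against 2.34 and 2.35 against 3.04. Rchy1, a ubiquitin ligase, was higher there by 0.62 and 0.56. In InjuredPT-B, Rev1, Rchy1 and Rev3l, the catalytic subunit of polymerase zeta, were called higher, Rev3l by 0.27 and 0.46.

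**Figure D5:**
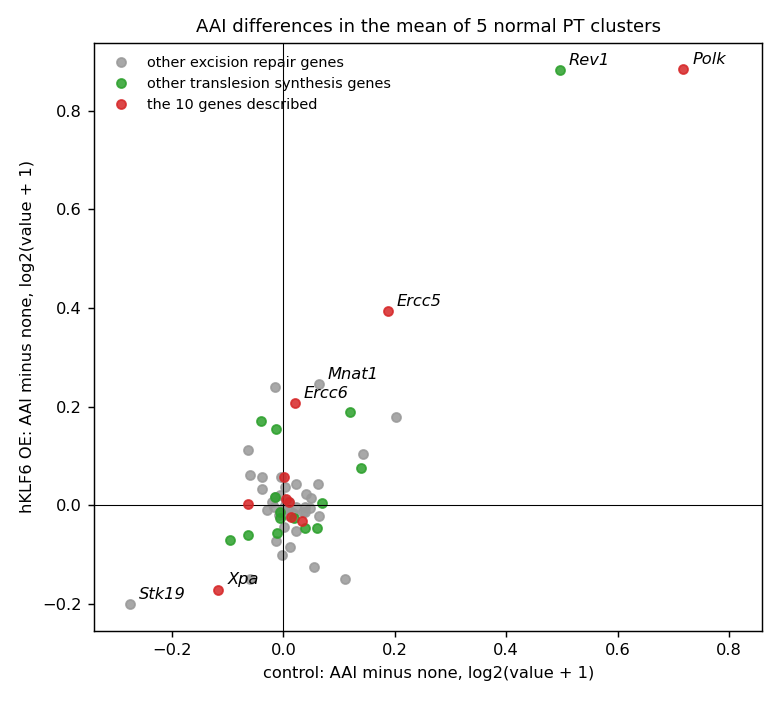
Difference of log2(level + 1) between AAI and none in normal proximal tubule (mean of 5 clusters), control mice on the horizontal and hKLF6OE mice on the vertical axis, 1 point a gene, including genes below the filter. Polk (0.72, 0.88) and Rev1 (0.50, 0.88) have the largest differences in both genotypes. Ercc5 is next in hKLF6OE mice at 0.39, and Stk19 is below 0 in both (-0.28, -0.20).

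The genes whose levels were most like those of Polk over the 92 columns, by Pearson's r of log2(level + 1) among 4271 genes with a mean of at least 0.5, were Mdm2 (r = 0.83), which encodes a ubiquitin ligase, Ccng1 (r = 0.81), which encodes cyclin G1, and Vmp1 (r = 0.76), which encodes a membrane protein of the endoplasmic reticulum. For Xpa, the only other member with a mean of at least 0.5, they were Nisch (r = 0.52), Trim25 (r = 0.49) and Snap23 (r = 0.48), so no gene followed it closely. Among pairs of the 10 genes r was highest for Ercc5 and Polk, at 0.60. The columns share mice, libraries and clusters, so these values are descriptions.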

How the data were processed

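Single-nucleus RNA sequencing of kidney cortex from 4 mice was used, as a deposited table of signal values. The authors counted reads with Cell Ranger 3.1.0 on a mouse pre-mRNA reference (mm10 per the submitters' processing notes), kept nuclei with 200 to 6000 genes and at most 10% mitochondrial reads, and clustered them with Seurat 4.3. Doublet removal is not described for these data. How each nucleus was scaled is not given in the sources used here. The 23 cluster names were assigned from the sheet order of the study's marker table and checked with markers. Depth and nuclei per column are unknown, so no interval could be given.

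Of 19632 rows, 23 with date-like names were left out. Differences were taken with a pseudocount of 1, a minimum larger level of 0.5 and a threshold of 0.2. Injured clusters were compared within each AAI-treated mouse, and a call needed both mice. The 10 genes are named throughout. Of the other repair lists the called gene with the largest rise and fall in a comparison is named, and Gtf2h2 in hKLF6OE mice, Rev1, Rchy1 and Rev3l in InjuredPT-B and the levels of EC-2, LH-AL-2 and IC-A were chosen after their values were seen. Genes and lists were chosen with earlier results of these data known. Scripts (Python 3.11.15, numpy 2.4.6, pandas 2.3.3) were tested on simulated data. Gene spans came from GENCODE and promoters from RefSeq.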

Additional observations from a re-analysis of the deposited data

Results flagged for a closer look

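Outside the injured clusters there were 6 cases in which a member was called in both genotypes with AAI, but in opposite directions. Opposite differences past 0.2 in which a level did not pass the filter are not counted among them. Each side was 1 mouse, and the difference between genotypes was not tested. The share of all genes with such calls was not computed. The 6 cases fell in clusters in which the share of gene rows at 0 was from 36.4% to 63.4%. Polk in LH-DL differed by 0.53 in control and -0.32 in hKLF6OE mice. Xpc differed by 0.72 and -0.55 in LH-DL, by 0.50 and -0.70 in Macrophage, and by -0.58 and 0.69 in IC-B-2. Xpa differed by -0.40 and 0.21 in MC, the mesangial cluster, and by -0.98 and 0.60 in LH-AL-3, where its level in hKLF6OE without AAI was listed at 0.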

How the results depend on the processing

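No paired analysis was possible because each condition holds 1 mouse. No value changed direction while called. Of the values compared under another setting, 150 for whole comparisons stayed close and 36 moved. Of those for single genes and the wider repair lists, 422 stayed close and 122 moved. For Polk 48 stayed close and 20 moved, and for Ercc5 47 stayed close and 21 moved. Shares of all genes called were not computed under these other settings, so the member counts below stand without a background. With a pseudocount of 0.1, AAI in the normal proximal tubule called 2 members higher (Ercc5, Polk) and 1 lower (Xpa) in control mice and 1 lower (Xpa) in hKLF6OE mice, and hKLF6OE with AAI was above control with AAI in 3 (Ercc5, Ercc6, Polk). With a minimum level of 2, AAI called 0 members higher in either genotype, and InjuredPT-A and InjuredPT-B called 1 each (Polk). At a threshold of 0.5, AAI called 1 (Polk) in hKLF6OE mice, as it still did in control mice, and InjuredPT-B called 1 (Polk). At a threshold of 1, AAI in either genotype, InjuredPT-A and InjuredPT-B called 0. Centred on the median of all genes, Xpa was lower (1 member) and Ercc6 no longer higher in hKLF6OE mice, and InjuredPT-B called 1 (Polk). In PT-S3 clusters only, 2 members (Ercc5, Polk) were higher with AAI in control mice, and against PT-S3 clusters InjuredPT-B called 1 (Polk). In PT-S1-S2 clusters only, 1 member (Xpa) was lower in hKLF6OE mice and 1 (Polk) was higher in hKLF6OE with AAI than in control with AAI. From control with AAI alone, InjuredPT-A called 4 (Ercc4, Ercc5, Xpc, Polk).

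Outside the proximal tubule, 39.7% of member and cluster pairs that passed were higher and 27% lower in control mice, and 56% and 22% in hKLF6OE mice. Over all genes the shares were 28.6% higher and 26.7% lower in control mice, and 32.3% and 27.7% in hKLF6OE mice. Of the member calls higher, Polk gave 11 in control and 13 in hKLF6OE mice. Shares over all genes were not computed at the settings that follow. With no filter the member shares were 21.7%, 15.9%, 26.6% and 14.3%, and at a threshold of 0.5 they were 14.3%, 6.35%, 24% and 10%. At that threshold Polk was higher in 31.2% of clusters in control and 50% in hKLF6OE mice, and Ercc5 in 0% and 6.25%. Alternatives chosen after seeing the data left out clusters with over 45% of rows at 0, which gave 12.9% of pairs lower in hKLF6OE mice, or EC-1 and DCT_CNT, which gave Ercc5 higher in 7.14% of clusters in control mice. By Spearman's rho, 0 of the 3 genes most like Xpa were shared. Over all settings the Polk difference with AAI ran from 0.39 to 1.51 in control and from 0.65 to 1.78 in hKLF6OE mice, and that of Ercc5 from -0.05 (PT-S1-S2 clusters only) to 0.46 and from 0.17 to 0.94. The cause of these changes was not tested beyond what each setting does by construction.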

Other observations

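Genes of other DNA repair routes were listed after values of these data had been seen and the genes named below were chosen after their values were seen. In the normal proximal tubule with AAI, none of 18 Fanconi anaemia genes passed the filter in either genotype. Of 18 homologous recombination genes 1 passed, and of 19 base excision repair genes 2, in each genotype. Of 9 end-joining genes 4 passed in control and 3 in hKLF6OE mice. None of those that passed was called, and the others could not be called. Of 18 checkpoint genes 16 were analysed, and 2 passed the filter in each genotype. Atr, the kinase of replication stress, was called higher and Trp53bp1, an adaptor at double-strand breaks, lower in control mice, and neither was called in hKLF6OE mice. In InjuredPT-A the 3 end-joining genes that passed, Xrcc4, Xrcc5 and Prkdc, were called lower than in normal clusters in both mice, with a median of -0.61 and -0.60, beside 0.19 and 0.15 over all genes. Xrcc4 and Prkdc were also lower in InjuredPT-B. Mpg, a glycosylase of base excision repair, was called higher in both injured clusters, and Apex2, an endonuclease, was called lower in InjuredPT-A. Of all genes tested 43.3% were called higher and 27% lower in InjuredPT-A, and 23.4% and 13.1% in InjuredPT-B.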
